A study of Homo sapiens with 6 samples.

Results

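The comparison described here set the N6-methyladenosine (m6A) peaks of U2OS cells given DF2 siRNA 2 against those of cells given a control siRNA. U2OS is an established human bone osteosarcoma line, and DF2 is the short name of YTHDF2. The members were all 13310 rows of the siRNA 2 peak list and all 15272 rows of the control peak list, 28582 of the 41729 rows of the 3 lists of the series. A peak counted as shared when at least 1 base of its exonic blocks lay on the same strand in a block of the other list. A peak with no such partner is called one-sided below. Both groups were wild type by the labels and differed by the siRNA alone. Each had 1 m6A-IP library and 1 input library of cytoplasmic RNA cut to about 100 nt, and each list was marked by the authors as merged over r1 and r2. The labels do not say what these 2 replicates were. With 1 merged list a side there were no replicates, so no difference was tested and no value has an SD. Intervals are 95% exact binomial (Clopper-Pearson) intervals and cover counting error only.

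m6A is the most common internal modification of messenger RNA and is laid down in the nucleus by a complex around METTL3 and METTL14. It gathers near stop codons, in long internal exons and in 3′ UTRs. YTHDF2 is a cytoplasmic reader that binds m6A and brings the CCR4-NOT deadenylase to the bound RNA, which shortens the life of that RNA. Antibodies against m6A also bind m6Am, a related mark on an adenosine next to the cap, so a signal at the very start of an mRNA can come from either mark. A peak list says where enrichment over input passed the authors' limit. It measures neither the level of an RNA nor the share of its copies that carry the mark.

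The siRNA 2 peaks with no control partner lay in the 5′ UTR more often than any other class of peaks, so start sites of the leading ones are shown first. The 8 one-sided siRNA 2 peaks of the 5′ UTR with the highest scores belonged to TMSB4X, PFN1, YBX3, RP11-977G19.10, FKBP4, MYDGF, NPR1 and S100A16. The RP11-977G19.10 peak and a CNPY2 stop codon peak had overlapping spans, so nearly the same place is listed under both genes, with different classes. For 4 of the 8 a RefSeq start (GRCh38.p14) lay within 100 bases of the 5′ edge of the peak. The sequences run 5′ to 3′ on the coding strand, and the capital marks the first transcribed base.
TMSB4X, chrX:12975095-12975124, plus strand: cgcaccccgcccgacAactcggtggtggcc
YBX3, chr12:10723309-10723338, minus strand: ggccatttttggggcAgtaagatcgagcga
RP11-977G19.10, at the RefSeq start of CNPY2, chr12:56315974-56316003, minus strand: caggggagctgggtcAggcggtcgccggga
MYDGF, chr19:4670328-4670357, minus strand: tgccctgaggaccctAgtccaacatggcgg
All 4 starts were an A, the base that m6Am requires. RefSeq starts of protein-coding genes were an A in 50.1% (49.5 to 50.8) of 22199 cases, so 4 such starts on their own say little.

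YTHDF2 itself, the gene the siRNA was directed at, had a single peak per list. The control peak (chromosome 1, plus strand, hg38) ran from 28740371 to 28769316 over 2000 exonic bases, and it touched both UTRs, the coding sequence and the stop codon. The siRNA 2 peak ran from 28742575 to 28769116, covered 1600 bases and did not touch the 5′ UTR. The authors' fold enrichment was 91.0 in the control list and 53.1 in the siRNA 2 list, and the authors' score stood at percentile 99.1 and 66.6 of the 2 lists. How far siRNA 2 lowered YTHDF2 RNA or protein was not measured by either list.

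The labels call the cells epithelia cells, and peaks in marker genes did not settle that name. None of 8 epithelial markers had a control peak, and KRT8 and CLDN4 alone had siRNA 2 peaks. RUNX2 and COL1A1, 2 of 10 osteoblast and mesenchymal markers, had a peak in both lists, and the others of that group had none. With siRNA 2, then, each of these groups had 2 members with a peak. Of 5 blood markers CD14 had a control peak, and of 2 endothelial markers CDH5 had peaks in both lists and PECAM1 in the control list alone. A gene without a peak may still be expressed, so the markers check the label in part only.

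The siRNA 2 list was the smaller one. It covered 10.1 Mb in 8609 genes, and the control list covered 12.1 Mb in 9618 genes. Median covered width was 600 bases in both lists, and the median of the authors' fold enrichment was 18.7 with siRNA 2 and 19.1 in control. Read depth is unknown here, and its part in the different list lengths was not tested.

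Most peaks of the siRNA 2 list were also control peaks. Of 13310 siRNA 2 peaks, 11462 were shared and 1848, or 13.9% (13.3 to 14.5), were one-sided. Of 15272 control peaks, 11216 were shared and 4056, or 26.6% (25.9 to 27.3), were one-sided. Cut to the same number of top peaks by score, 13310 a side, 18.8% of control peaks and 16.8% of siRNA 2 peaks were one-sided, a smaller gap than between the whole lists. One-sided peaks were weak in both lists. Their median fold was 9.52 in control, against 26.0 for shared control peaks, and 10.4 with siRNA 2, against 21.7 for shared siRNA 2 peaks. They were also narrow, with a median of 400 bases on each side. The false discovery rate (FDR) was 0.01 or more in 45.9% of one-sided control peaks and in 50.5% of one-sided siRNA 2 peaks, against 8.95% and 11.97% of shared ones.

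The score of a peak went with its chance of being found in the other list on both sides, but not evenly. In the weakest 10% of the control list, 15.3% (13.5 to 17.3) of 1474 peaks were found with siRNA 2. In the weakest 10% of the siRNA 2 list, 63.1% (60.5 to 65.6) of 1365 peaks were found in control. At the strong end the lists met, with 97.6% (96.7 to 98.3) of the top 10% of control peaks and 98.9% (98.2 to 99.4) of the top 10% of siRNA 2 peaks shared. A one-sided control peak was in a gene with a siRNA 2 peak elsewhere in 2075 of 4056 cases (51.2%). A one-sided siRNA 2 peak was in a gene with a control peak elsewhere in 1095 of 1848 cases (59.3%).

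**Figure D1:**
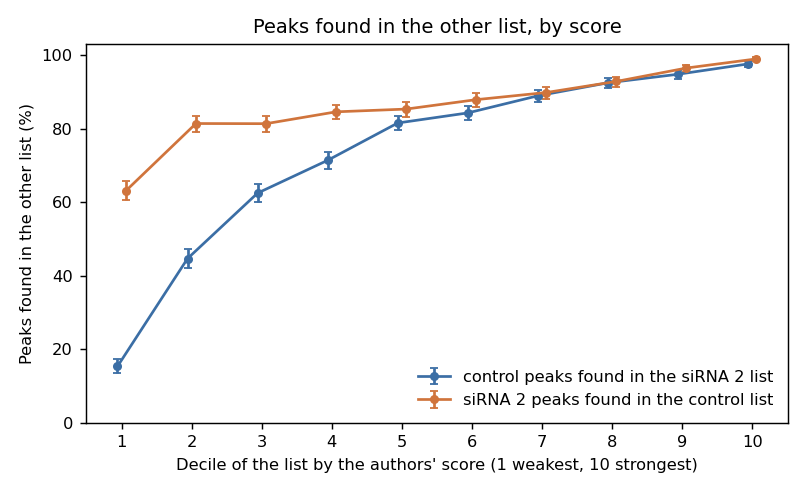
Share of peaks found in the other list (percent, y axis) by decile of the authors' score within each list (x axis, 1 weakest, 10 strongest); points are shares and bars 95% exact binomial intervals. Control peaks climb from 15.3% to 97.6%, and siRNA 2 peaks start at 63.1% and end at 98.9%.

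The strongest siRNA 2 peaks were all shared. By score they were 2 peaks of SLC7A5, a transporter of large neutral amino acids, and peaks of BASP1, EPPK1, PRSS23, DAG1, CTSZ, BMP2, UHRF1 and NFIC. The leading SLC7A5 peak (chromosome 16, minus strand, 3′ UTR) covered 1600 bases from 87830168 to 87831767 with siRNA 2 and 1200 bases in control, and it headed both lists by score. Next came its stop codon peak, from 87832168 to 87832967, with the same 800 bases in both lists and folds of 132 with siRNA 2 and 70.5 in control. DAG1, which codes for dystroglycan, a receptor for the matrix around the cell, had 1 siRNA 2 peak of 3400 bases that overlapped 2 control peaks. BMP2, a secreted signal that drives bone formation, had folds of 88.8 with siRNA 2 and 89.3 in control. UHRF1, a factor that keeps DNA methylation through replication, had folds of 169 and 85.8. EPPK1 (epiplakin), a cytoskeletal linker of epithelial cells, moved furthest in rank among the 10. Its leading coding peak stood at percentile 99.97 of the siRNA 2 list and 94.2 of the control list, with folds of 320 and 69.5. The covered width of that EPPK1 peak was 800 bases with siRNA 2 and 400 in control. Ranks and folds describe a peak within its own list and measure no change between lists.

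The parts of the transcript touched by one-sided peaks differed between the lists. Parts follow the authors' annotation: any peak with stop codon sequence counts as a stop codon peak, and of the rest, those with 5′ UTR but without 3′ UTR count as 5′ UTR peaks. In the siRNA 2 list 671 of 1848 one-sided peaks were 5′ UTR peaks, or 36.3% (34.1 to 38.5), against 13.4% (12.8 to 14.0) of shared siRNA 2 peaks. Among one-sided control peaks the 5′ UTR share was 16.4% (15.2 to 17.5). Stop codon peaks made up 25.3% (24.0 to 26.7) of one-sided control peaks, against 49.3% (48.4 to 50.2) of shared ones. Shares of 3′ UTR (26.8%) and non-coding RNA peaks (19.3%) were higher than among shared control peaks (16.3% and 10.2%). Requiring at least 50% of each peak in common made the 5′ UTR share of one-sided siRNA 2 peaks 26.0% (24.4 to 27.5) of 3193. With peaks that touch no coding part other than the 5′ UTR, the share was 22.2% with siRNA 2 and 10.8% in control.

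Shares by score are given next, and the part of score in the difference was not tested. Shared peaks in the lower 50% by score were 5′ UTR peaks in 16.0% (15.1 to 17.1) of 5245 siRNA 2 cases and 19.4% (18.2 to 20.6) of 4227 control cases. These lower 50% shared control peaks were near one-sided control peaks in stop codon share, at 27.5% (26.2 to 28.9). Their non-coding share, 22.1% (20.8 to 23.4), was above that of one-sided control peaks, and their 3′ UTR share, 19.7% (18.5 to 21.0), below it. One-sided peaks in the upper 50% by score were 5′ UTR peaks in 32.7% (28.4 to 37.2) of 456 siRNA 2 cases and 8.58% (6.53 to 11.02) of 641 control cases. Stop codon peaks made up 57.6% (53.6 to 61.4) of these 641 stronger one-sided control peaks and 37.3% (32.8 to 41.9) of the 456 siRNA 2 ones.

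**Figure D2:**
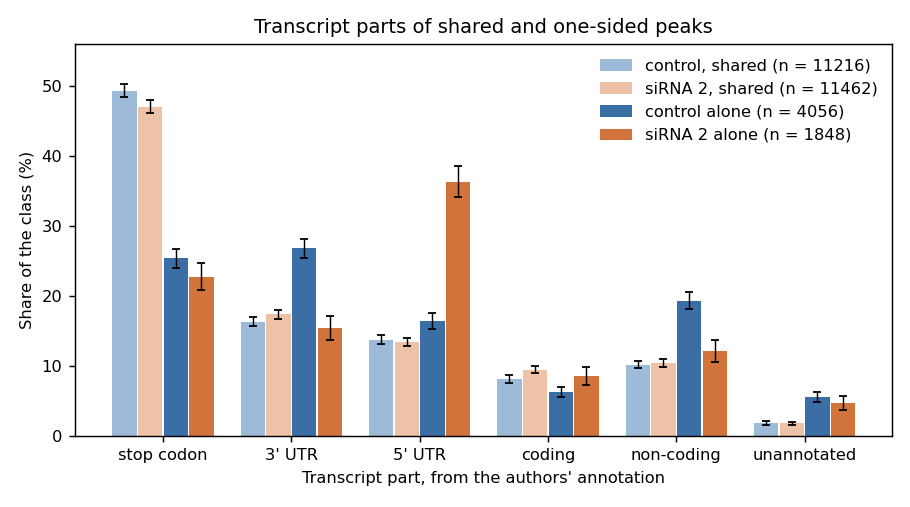
Share of each class of peaks (percent, y axis) in each transcript part (x axis); pale bars are shared peaks, dark bars one-sided peaks, and error bars are 95% exact binomial intervals. The one-sided siRNA 2 bar reaches 36.3% at the 5′ UTR, above the other 3 classes, which lie between 13.4% and 16.4%.

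Seen by region, the 5′ UTR was the part in which both lists left equal shares unmatched. It held 2206 siRNA 2 peaks, of which 30.4% (28.5 to 32.4) were one-sided, and 2204 control peaks, of which 30.1% (28.2 to 32.1) were one-sided. At stop codons 7.21% (6.56 to 7.91) of siRNA 2 peaks and 15.7% (14.8 to 16.6) of control peaks were one-sided. In 3′ UTRs the shares were 12.5% (11.2 to 13.9) and 37.3% (35.5 to 39.0), and in non-coding RNA 15.7% (13.9 to 17.8) and 40.7% (38.5 to 42.9). In peak numbers the siRNA 2 list was shorter at stop codons (5811 against 6559), in 3′ UTRs (2271 against 2915), in non-coding RNA (1416 against 1923) and in unannotated parts (289 against 424), about equal in 5′ UTRs (2206 against 2204), and longer in coding sequence (1242 against 1161). Of the 671 one-sided siRNA 2 5′ UTR peaks, 456 (68.0%) were in genes with a control peak elsewhere.

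One-sided siRNA 2 5′ UTR peaks began near a transcript start more often than shared ones, though fewer than 50% did. A RefSeq start lay within 100 bases of the 5′ edge in 294 of 671 one-sided siRNA 2 cases, or 43.8% (40.0 to 47.7), against 33.0% (30.7 to 35.4) of 1535 shared ones. One-sided control 5′ UTR peaks began near a start in 27.3% (23.9 to 30.8) of 664 cases. At 50 bases, a distance chosen after seeing the data, the shares were 30.4%, 25.6% and 19.9% in that order. The start base was an A in 60.2% (54.4 to 65.8) of the 294 starts, 51.7% (47.2 to 56.1) of the 507 starts of shared siRNA 2 peaks and 54.7% (47.1 to 62.1) of the 181 starts of one-sided control peaks. These intervals overlap. The letters GGAC, the commonest core of an m6A site, were searched on the coding strand in the first 50 bases after the start. They stood in 27.2% (22.2 to 32.7) of starts of one-sided siRNA 2 peaks and 19.3% (16.0 to 23.0) of starts of shared ones, with overlapping intervals. One-sided control peaks lay between, at 22.7% (16.8 to 29.5). RefSeq starts held GGAC in 19.8% (19.2 to 20.3) of the 22199 protein-coding cases and 18.9% of all 35116. Median GC at the starts was 67.3% for one-sided and 66.7% for shared siRNA 2 peaks, and 62.3% for protein-coding RefSeq starts. Neither the difference in GGAC nor the part of GC in it was tested. A match of letters shows no methylated site.

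Covered widths of the 8 named 5′ UTR peaks ran from 200 to 800 bases. TMSB4X codes for thymosin beta 4, which holds actin monomers. Its siRNA 2 peak on the plus strand of chromosome X, from 12975108 to 12975307, stood at percentile 98.3 with a fold of 19.2, and the 5′ edge lay 2 bases before the RefSeq start at 12975110. PFN1 (profilin 1), another partner of monomeric actin, had a peak on the minus strand of chromosome 17 from 4948462 to 4948661 at percentile 94.1 with a fold of 12.5. Both genes had no control peak. YBX3, a cold shock domain protein that binds mRNA, had a peak on the minus strand of chromosome 12 from 10723113 to 10723312 with a fold of 25.01. FKBP4, a co-chaperone of HSP90, had a fold of 17.9 and NPR1, the receptor of natriuretic peptides, 27.6. MYDGF and S100A16 had 13.7 and 14.3. Of the 8, YBX3 and NPR1 had folds above the list median of shared peaks, 21.7, and the others below it.

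At the level of genes, 10313 had a peak in either list and 7914 in both. A further 1704 (16.5%, 15.8 to 17.3) had control peaks alone and 695 (6.74%, 6.26 to 7.24) siRNA 2 peaks alone. With the same number of top peaks a side these counts were 1116 and 915. Genes in one list alone mostly had a single peak there, in 1454 of 1704 and 620 of 695 cases. Where both lists had the gene, 5403 genes had the same number of peaks, 1505 had fewer with siRNA 2 and 1006 had more. Protein-coding genes by RefSeq were 84.9% (84.1 to 85.7) of genes in both lists, 65.1% (62.8 to 67.3) of those in control alone and 75.1% (71.7 to 78.3) of those in siRNA 2 alone. Symbols that RefSeq did not match made up 9.62%, 23.5% and 16.5% of these classes. Median gene span was 30.7 kb for genes in both lists, 32.1 kb for control alone and 18.2 kb for siRNA 2 alone.

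Of the 12 control-alone genes with the highest scores, 9 had their leading peak at the stop codon. SERBP1, which binds ribosomes and mRNA, had a control peak of 600 bases on the minus strand of chromosome 1 from 67412886 to 67419812, at percentile 99.1 with a fold of 29.1. MPZL1, a cell surface glycoprotein, stood at percentile 98.4 with a fold of 19.7. PDIA6 and PDIA3, which form disulfide bonds in the endoplasmic reticulum, had folds of 18.3 and 11.3. XBP1, a transcription factor of the unfolded protein response, had a stop codon peak of 800 bases on chromosome 22 at percentile 97.2 with a fold of 15.9. RAN, the GTPase of nuclear transport, had a 3′ UTR peak with a fold of 17.3. TSPAN3, STEAP4 and ADIPOR1, all membrane proteins, had folds of 15.02, 14.3 and 12.3. HNRNPU and RBMX, nuclear RNA-binding proteins of which RBMX is counted among readers of m6A, had folds of 12.4 and 17.0. NEAT1, the RNA that builds paraspeckles, was the one non-coding gene of the 12, at percentile 95.7 with a fold of 24.2. Further stop codon peaks in the control list alone came from CLU (clusterin), at percentile 98.0, and METAP2, a methionine aminopeptidase, with a fold of 33.7. High scores went with modest folds here. With an FDR under 0.01 in each list 7 of the 12 genes were still in control alone, and in the upper 50% by fold 3 of 12.

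The 12 siRNA 2-alone genes with the highest scores were more mixed by transcript part. FTH1, the heavy chain of the iron store ferritin, had a siRNA 2 peak of 400 bases on the minus strand of chromosome 11 from 61967116 to 61967660, at percentile 99.7 with a fold of 26.0. PKM, the pyruvate kinase of glycolysis, had a 3′ UTR peak of 371 bases on chromosome 15 at percentile 98.4 with a fold of 16.8. TMSB4X, PFN1 and YBX3 followed with the 5′ UTR peaks given above. CLPTM1L had a fold of 14.8, L1CAM, a cell adhesion protein of neurons, 12.8, HN1 13.1, EDF1, a coactivator that also senses collided ribosomes, 12.3 and ECEL1 12.6. CNPY2 had a fold of 19.5. Its stop codon peak, from 56314993 to 56316136, lay over nearly the same place as the RP11-977G19.10 peak, from 56314919 to 56316059. AL021546.6 had 15.9, and its peak overlapped a control peak given to another gene, as in 23 of the 695 genes. Here too 7 of the 12 genes were still in siRNA 2 alone with an FDR under 0.01 in each list, and 4 of 12 in the upper 50% by fold.

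Among peaks that matched one to one, siRNA 2 peaks were more often the narrower ones. Of 9620 such pairs, 4312 (44.8%) had the same blocks. The siRNA 2 peak was narrower in 3512, or 36.5% (35.5 to 37.5), and wider in 1591, or 16.5% (15.8 to 17.3). Mean covered width was 878 bases in control and 801 with siRNA 2. Many widths differed by 200 bases, the step of which most widths in the lists are multiples, with 1995 pairs narrower and 1139 wider by that step. Both ends were involved. At the 5′ edge the siRNA 2 peak began further 3′ in 1976 pairs and further 5′ in 1067, and at the 3′ edge it ended further 5′ in 2582 and further 3′ in 943.

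The balance of narrower and wider peaks was uneven along the transcript, with pairs classed by the part of the control peak. Median control width was 800 bases in stop codon pairs and 400 in 5′ UTR pairs. What part starting width and this grouping had in the balance was not tested. Stop codon pairs were narrower with siRNA 2 in 40.4% (39.0 to 41.8) of 4735 cases and wider in 13.7% (12.8 to 14.8). Non-coding pairs were narrower in 42.8% (39.7 to 46.0) of 971 and wider in 15.04%, and 3′ UTR pairs in 37.4% and 17.7% of 1589. In the 5′ UTR the balance was even, with 21.4% (19.2 to 23.7) of 1334 pairs narrower and 22.2% (20.0 to 24.5) wider. Strong pairs differed less. In the 940 pairs within the top 10% by score of both lists, 24.8% (22.1 to 27.7) were narrower and 19.6% (17.1 to 22.3) wider, with mean widths of 1182 and 1166 bases. At the 5′ edge of these strong pairs the order turned, with 126 starting further 5′ with siRNA 2 and 98 further 3′. Among all pairs the stop codon was touched in control alone in 398 and with siRNA 2 alone in 262, the 5′ UTR in 185 and 111, and the 3′ UTR in 132 and 40.

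**Figure D3:**
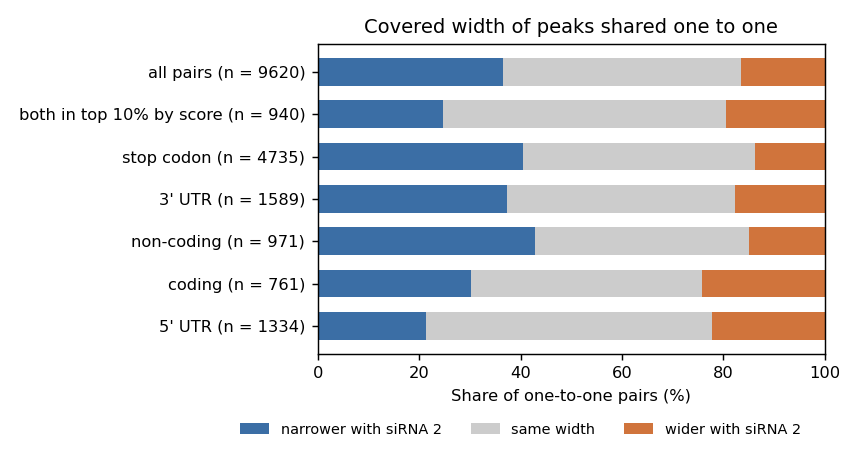
Share of one-to-one pairs (percent, x axis) in which the siRNA 2 peak was narrower (blue), of the same width (grey) or wider (orange) than the control peak, for all pairs, strong pairs and each transcript part of the control peak. Blue takes 36.5% of all pairs and 40.4% at stop codons, and blue and orange are near equal in the 5′ UTR (21.4% and 22.2%).

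The largest differences of width in strong pairs ran both ways. USP1, a deubiquitinase of DNA repair, covered 1800 bases in control and 600 with siRNA 2. DENND5B went from 2000 to 1000, TENT5A, a poly(A) polymerase, from 2400 to 1400, ATMIN from 2800 to 2000, COA7 from 2000 to 1200 and CSTF1, a factor of mRNA 3′ end cleavage, from 1400 to 600. In the other direction CCNF (cyclin F) covered 800 bases in control and 2000 with siRNA 2. SERPINH1, the collagen chaperone HSP47, went from 314 to 1314, GPRC5C from 1200 to 2000, BCL9L from 800 to 1400, IRS2, an adaptor of the insulin receptor, from 1600 to 2200, and LRFN4 from 2200 to 2800. Width and fold did not always move together. DENND5B had folds of 77.7 in control and 104 with siRNA 2, and LRFN4 had 100.1 and 206.

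Some peaks did not match one to one. In 1117 cases a control peak overlapped 2 or more siRNA 2 peaks, and in 922 cases a siRNA 2 peak overlapped 2 or more control peaks. ZDBF2, an imprinted gene with a very long last exon, had a control peak of 7000 bases that overlapped 6 siRNA 2 peaks. The non-coding HOXA11-AS had a control peak of 2917 bases, also over 6. In the other direction the siRNA 2 peak of MC1R, 3166 bases, overlapped 5 control peaks. Such counts include peaks listed under overlapping genes at the same place, as for AC010642.1 and ENSG00000283515 on chromosome 19.

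In 146 genes both lists had a peak and none of the peaks overlapped. The strongest siRNA 2 peak lay upstream of the strongest control peak in 96 of them, or 65.8% (57.5 to 73.4). By class it was a 5′ UTR peak where the control peak was not in 49 genes (33.6%, 26.0 to 41.8). The reverse held in 20 (13.7%, 8.57 to 20.4). Among all one-sided peaks the 5′ UTR shares were 36.3% with siRNA 2 and 16.4% in control. Genes without overlap draw largely on one-sided peaks, so these counts are no separate result. UCK2, a uridine kinase, had a stop codon peak in control (chromosome 1, 165905949 to 165908262, fold 17.3) and a 5′ UTR peak with siRNA 2 (165827531 to 165827930, fold 15.1). NIPA2 likewise had a stop codon peak in control and a 5′ UTR peak with siRNA 2. SLC38A1, a glutamine transporter, and GNG11 had the same classes, but their control peaks also touched the 5′ UTR. For GNG11 the siRNA 2 peak ended at 93921898 and the control peak began at 93922099. NUCKS1, a chromatin protein, had a 3′ UTR peak in control (fold 14.6) and a 5′ UTR peak with siRNA 2 (fold 21.4). ZNF207 had stop codon peaks in both lists at different places, and the siRNA 2 one also touched 5′ UTR, coding and non-coding annotation.

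Gene groups were counted against the background of all genes with a peak in either list, of which 16.5% were in control alone and 6.70% in siRNA 2 alone by symbol. Groups and members were chosen with earlier results of these data known, so the counts and their order are a description. By symbol, 7894 of all 10279 genes with a peak had one in both lists. The reader and eraser list was near that share, and the writer complex list above it. All 10 writer complex genes with a peak had one in both, among them RBM15B with the same 3000 bases in both (folds of 74.3 in control and 108 with siRNA 2), METTL16 with the same 1200 bases and WTAP with the same 800. Of 14 genes of the reader and eraser list, 11 were in both and 3 in control alone (21.4%, against 16.5% of all genes). These 3 were RBMX, G3BP1, a stress granule protein (fold 21.2), and FMR1 (fold 7.71). FMR1 lay at percentile 8.03, near the floor of the control list. YTHDF1 and YTHDF3, the paralogues of YTHDF2, had peaks in both lists, with folds of 38.8 and 63.8 in control and 47.7 and 58.8 with siRNA 2. ALKBH5, an m6A eraser, had a 5′ UTR peak of 600 bases in both, with folds of 56.03 and 94.6.

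Of mRNA decay factors, 26 of 34 were in both lists, near the share of all genes. A further 7 were in control alone (20.6%, against 16.5% of all genes) and 1, SMG5, in siRNA 2 alone. Control-alone members included CNOT11 (fold 17.5), CNOT7 and CNOT10, which are subunits of CCR4-NOT, PUM2, a 3′ UTR-binding repressor (14.9), and RIDA (HRSP12), an adaptor between YTHDF2 and RNase P/MRP (11.9). CNOT7 and CNOT10 lay at percentiles 4.45 and 1.27, near the floor of the control list. Of 18 genes known as YTHDF2 targets from earlier work, 17 were in both lists and MAP4K4 in siRNA 2 alone, at percentile 43.9. SON, a splicing cofactor of that list, had its leading coding peak at 4400 bases in control and 2800 with siRNA 2. These were the peaks of highest score in each list and need not match one to one. The siRNA 2 peak began further 5′, at 33549545 against 33550545.

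Immediate-early genes, whose short-lived mRNAs answer growth signals within minutes, were the most evenly matched group. All 33 with a peak had one in both lists, and 2 of 52 control peaks and 2 of 51 siRNA 2 peaks of the group were one-sided. The peaks of this group scored high, with median percentiles of 75.04 in control and 82.3 with siRNA 2. High-scoring peaks of all genes were mostly shared too, and the part of score in the match was not tested. IER2 had folds of 96.1 in control and 129 with siRNA 2, IER5L 122 and 207, CCN1 58.7 and 42.5. Genes of the heat shock and unfolded protein responses were in both lists in 28 of 31 cases. Their median percentiles were also high, 86.6 in control and 81.4 with siRNA 2. Of their peaks, 6 of 40 in control and 7 of 41 with siRNA 2 were one-sided. HSPA5, the chaperone BiP, had folds of 39.7 and 20.7 and CALR (calreticulin) 30.8 and 52.3. XBP1 was the exception with a high score. Of 28 bone and matrix genes 26 were in both, with COL4A1 in control alone and LOX, which crosslinks collagen, in siRNA 2 alone.

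Among the 24 groups, control-alone genes were most frequent, by share, in the histone, splicing, respiratory chain and transport groups. Each of these shares rests on 5 to 8 genes, and the groups were chosen with earlier results of these data known. Among 25 SR and hnRNP splicing genes 8 were in control alone (32.0%) and HNRNPD in siRNA 2 alone. The 8 included HNRNPU, HNRNPA3 (fold 29.1), SRSF10 (13.2), SRRM1 (10.6) and SRSF4 (12.1). Of 23 genes of transport between endoplasmic reticulum and Golgi 7 were in control alone (30.4%) and 4 in siRNA 2 alone (17.4%). The first set held SEC31A, a coat subunit of COPII vesicles, RAB1A, USO1, SAR1B, ERGIC2 and LMAN2, the first 5 with stop codon peaks at percentiles from 58.4 to 89.4. The second set was SEC24C and SEC24D, also COPII coat subunits, GBF1 and STX5, so members of 1 coat fell on both sides. Respiratory chain and ATP synthase genes had 8 of 26 in control alone and 5 in siRNA 2 alone. Replication-dependent histones had 5 and 2 of 15, a family of near-identical copies whose peaks are uncertain, since the handling of reads shared between copies is not known here.

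In other groups the siRNA 2-alone members were as many or more. Autophagy and lysosome genes had 4 of 27 in control alone and 6 (22.2%) in siRNA 2 alone. The 6 were MAP1LC3B, which coats autophagosomes (percentile 64.4, fold 9.36), TFE3, ATG3, ATG9A, GABARAPL1 and BECN1. BECN1, at percentile 0.387, was close to the floor of the list. Glycolysis and hypoxia genes had 1 of 21 in control alone, PFKFB2, and 3 in siRNA 2 alone, PKM, HIF1A and PFKM. HIF1A, the oxygen-regulated transcription factor, had a 5′ UTR peak of 200 bases on chromosome 14 at percentile 67.7 with a fold of 10.5. Lactate and glucose transporters matched, as with SLC16A1 (folds of 67.9 in control and 50.9 with siRNA 2) and SLC2A1 (34.1 and 34.2). Translation initiation genes, a set taken by symbol that includes regulators such as EIF4EBP1, had 2 and 3 of 22.

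Zinc finger (ZNF) genes had 25 of 348 in control alone (7.18%) and 4 in siRNA 2 alone (1.15%). Of their 649 control peaks 149 (23.0%) were one-sided, against 26.6% of all control peaks. Of their 602 siRNA 2 peaks 40 (6.64%) were one-sided, against 13.9% of all. ZNF281 covered 3400 bases in its leading control peak and 800 in the leading siRNA 2 one. Leading peaks were picked by score in each list and need not match one to one. Solute carriers had 27 of 173 (15.6%) and 7 (4.05%), RAB GTPases 3 and 2 of 27, DNA repair genes 6 and 2 of 37, and cell cycle genes 6 (21.4%) and 1 of 28. Among p53 targets and apoptosis regulators 5 of 29 were in control alone, PERP, FAS, TP53INP1, BAD and RRM2B. That is 17.2%, near the 16.5% of all genes, and RRM2B lay at percentile 1.27, at the floor of the control list. In siRNA 2 alone there were 0, against 6.70% of all genes, which says little in 29 genes. Proteasome genes had 5 (22.7%) and 4 (18.2%) of 22, against 16.5% and 6.70% of all genes. These members were few, and the 5 control-alone ones lay at percentiles from 1.27 to 20.95 of the control list. In siRNA 2 alone, PSME2 and PSMC2 lay at percentiles 8.14 and 2.54, and PSMD4 and PSMD3 at 87.3 and 75.7. Ribosomal protein genes had 4 and 1 of 23. Among those in both lists, RPL13 kept a 400-base 3′ UTR peak with folds of 41.5 and 44.9. Cholesterol genes had 3 of 20 in control alone and 1, MVD, in siRNA 2 alone. The leading peak of MSMO1, a later enzyme of that pathway, covered 1000 bases in control and 400 with siRNA 2, with folds of 48.6 and 17.4.

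**Figure D4:**
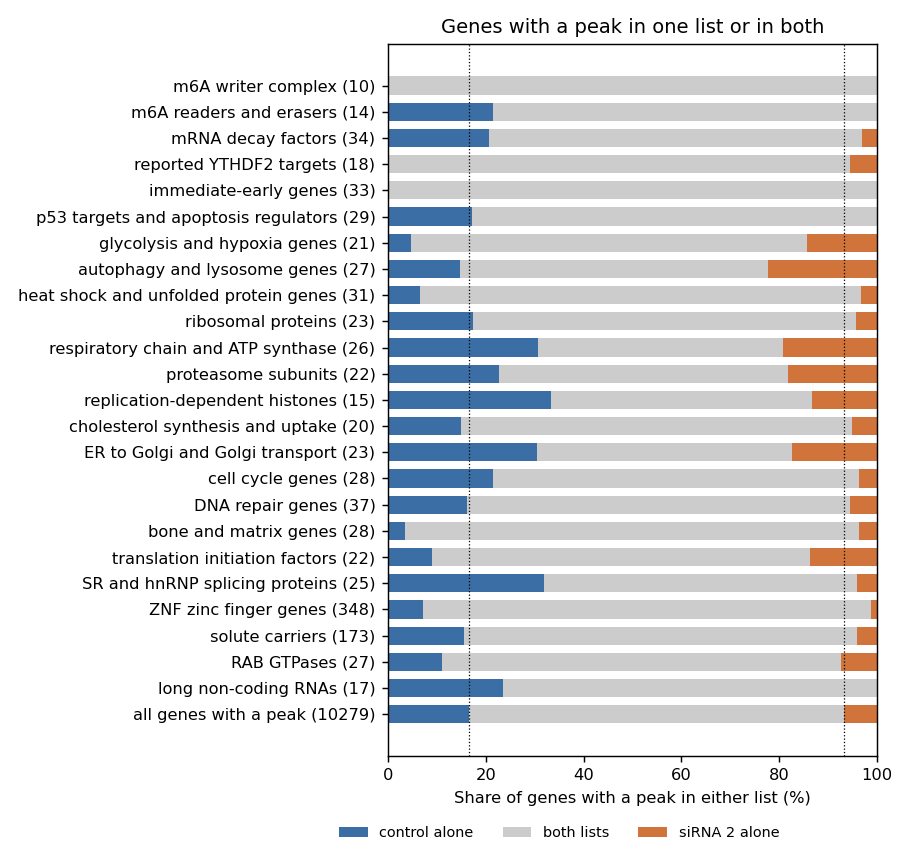
Share of genes with a peak in either list (percent, x axis) found in control alone (blue), both lists (grey) or siRNA 2 alone (orange), by gene group (y axis, number of genes in brackets). Dotted lines mark all genes, 16.5% in control alone and 6.70% in siRNA 2 alone; immediate-early and writer complex genes are grey throughout.

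Long non-coding RNAs had 4 of 17 in control alone and 0 in siRNA 2 alone, which allows a share of up to 17.6% (3 of 17). The 4 were NEAT1, HOTAIR, THUMPD3-AS1 and DANCR. MALAT1, a nuclear RNA, had a shared peak of 800 bases in both lists (folds of 38.1 and 36.2) and a second control peak, from 65498962 to 65499361 on chromosome 11, with no siRNA 2 partner (percentile 97.8, fold 16.8). NORAD, which binds Pumilio proteins, had the same 1200 bases in both, with folds of 59.1 and 118. OIP5-AS1 had one-sided control peaks of 800 and 200 bases beside a shared siRNA 2 peak of 200. Among the 456 one-sided siRNA 2 peaks in the upper 50% by score, 0 were non-coding, which allows a share of up to 0.658% by 3 counts of 456 and 0.806% by the exact interval, and the strongest non-coding one, RP11-1094M14.11, stood at percentile 45.1. The control counterpart was 10 of 641.

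By chromosome, the one-sided share of control peaks ran from 17.6% (14.1 to 21.6) on chromosome 22 to 34.9% (29.3 to 40.8) on chromosome 18. Chromosome 18 also had the lowest one-sided share of siRNA 2 peaks, 8.37% (4.95 to 13.1), and chromosomes 11 and 17 had the highest, at 17.6% (14.9 to 20.5) and 17.1% (14.7 to 19.8). The lowest control shares were on chromosomes 22 (17.6%), 16 (18.01%), 20 (20.4%), 17 (20.9%) and 19 (22.3%), against 26.6% of all control peaks.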

How the data were processed

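U2OS cells given a control siRNA or DF2 siRNA 2 were profiled by m6A-IP and input sequencing of cytoplasmic RNA, 1 library of each kind a condition, and the 2 merged peak lists were compared. The submitters' processing notes name HISAT2 and hg38. The sources used here do not give the peak caller or the handling of replicates. Each deposited peak has a score, a whole number of 3 or more that the authors do not define in the file headers. It also has a fold enrichment (ratio) and a −log10 FDR, both the authors' values per the file headers, and each deposited FDR was under 0.05. These values were used only to rank, filter or describe peaks within a list. Read depth is unknown. No column of per-sample values was left out.

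Block sizes on the minus strand were reversed before use, and positions were raised to count from 1. Shared peaks had 1 base or more of overlap between blocks, strand for strand. Genes were counted by the Ensembl identifier in the peak name, and gene groups by symbol, of which 8391 of 10243 were current in RefSeq (GRCh38.p14), 620 were updated and 1232 kept. Transcript parts came from the authors' annotation. Named genes followed a rule by score: YTHDF2, the 10 leading siRNA 2 peaks, the 12 leading genes and 8 leading peaks of each one-sided class, the 6 largest width differences each way in pairs within the top 10% by score of both lists, the 6 peaks a side that overlapped most peaks of the other list, the 6 leading genes with no overlapping peaks, and up to 6 members a class of each gene group. Members and lists were chosen with earlier results of these data known. Python 3.11.15, pandas 2.3.3, NumPy 2.4.6 and SciPy 1.17.1 were used, and the overlap script was tested on simulated peaks. Alternatives covered the overlap rule, strand, stricter FDR, the upper 50% by score or fold, lists of equal length and gene names.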

Additional observations from a re-analysis of the deposited data

How the results depend on the processing

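The lists hold no replicates to leave out. No paired analysis was possible because each condition has 1 merged list. With the FDR under 0.01, gaps of 100 bases, either strand, whole spans or other gene symbols, each count of one-sided peaks and genes stayed within 1.5 times its value. Requiring 50% of each peak in common gave 3193 one-sided siRNA 2 peaks, a 5′ UTR share of 26.0% among them, a stop codon share of 28.4% among one-sided control peaks and 34.7% of pairs narrower with siRNA 2. In the upper 50% by score of both lists, one-sided peaks numbered 1663 in control and 700 with siRNA 2, and genes 1092 and 383. Their 5′ UTR shares were 9.98% and 32.9%, and the control stop codon share was 55.6%. In the upper 50% by fold the one-sided peaks numbered 1943 and 928. With lists of equal length the control counts were 2506 peaks and 1116 genes. With the side that has the peak cut to its upper 50% by score, the counts were 641 control peaks, 456 siRNA 2 peaks, 339 control genes and 200 siRNA 2 genes. Under an FDR of 0.01, the 5′ UTR shares were 32.5% with siRNA 2 and 13.4% in control, and the control stop codon share was 32.4%. Peaks of the 5′ UTR alone made up 22.2% and 10.8%. Pairs in the upper 50% by score were narrower with siRNA 2 in 31.0% and wider in 17.5%. Control had more one-sided peaks in all the settings above. The 5′ UTR share was recomputed with 50% in common, an FDR under 0.01, the upper 50% by score and peaks of the 5′ UTR alone, and was higher with siRNA 2 in these 4. The share of one-sided siRNA 2 5′ UTR peaks near a RefSeq start was 30.4% within 50 bases and 53.9% within 200 bases, distances chosen after seeing the data.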
